A study of Mus musculus with 8 samples.

Results

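The 36 genes described here encode the transcription factor NRF2, its repressor KEAP1 and the enzymes that make, recycle and use glutathione. They also encode the thioredoxin and peroxiredoxin system, superoxide dismutases, catalase, detoxifying enzymes, 2 metallothioneins and enzymes of the pentose phosphate pathway, which supplies NADPH. They were taken by symbol from a fixed list, out of 32903 genes to which the deposited transcripts could be assigned. All 36 had at least 1 matched transcript, and 35 reached 1 TPM in at least 3 libraries and were tested beside 15629 genes in all. The exception was Slc7a11, the cystine importer.

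NRF2, encoded by Nfe2l2, is held in the cytoplasm and passed to degradation by KEAP1, whose cysteines sense oxidants and electrophiles. Once released, it binds antioxidant response elements together with small MAF proteins and drives genes of glutathione synthesis, thioredoxin reduction, NADPH supply and conjugation. The reduction of oxidised glutathione and of thioredoxin draws on NADPH, which also feeds the oxidative burst of macrophages.

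RNA-seq was run on liver resident macrophages, called Kupffer cells in the labels, from wild-type mice. Untreated mice gave the 5 naive libraries. The 3 CCl4 libraries, numbered 1, 2-4 and 3, came from mice with liver fibrosis after 8 weeks of carbon tetrachloride in corn oil, with 3 doses of 0.75 mL/kg each week. No strain, sex, age, oil control or method of cell isolation is given in the sources used here, and it is not stated whether 2-4 marks pooled animals or whether each library is a separate mouse, so p-values measure only the spread between these libraries. The comparison asks how Kupffer cells of fibrotic livers differ from those of healthy ones. Values are TPM, an abundance per transcript length scaled to the same total in every library, which keeps no sequencing depth.

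The naive and CCl4 libraries differed widely in cell type markers. All 10 Kupffer cell markers were lower in CCl4, their summed level going from 2764 to 5891 TPM in naive libraries to 337.7 to 475.6 TPM, and the defining lectin Clec4f, which with Cd5l led the list, from 877.5 to 1928 TPM to 65.6 to 87.2 TPM. All 10 markers of sinusoidal endothelium, led by Clec4g and Aqp1, were lower too, from 5895 to 11352 TPM to 398.7 to 661.5 TPM, and in the naive libraries they outweighed the Kupffer cell markers. Of 10 hepatocyte markers, led by Alb and Apoa1, 7 were lower and none higher, with sums of 697.7 to 1401 TPM and 217.6 to 930.3 TPM, and none was at 0. Erythroid genes, led by the globins Hbb-bs and Hba-a1 and lower in all 5 tested, summed to 3576 to 6752 TPM in naive replicates 1 to 4, 224.9 TPM in naive replicate 5 and 50.7 to 92.5 TPM in CCl4. Of 8 macrophage genes, led by Lyz2 and Cd68, 4 were higher and 1 lower, at 1066 to 2102 TPM and 2444 to 6156 TPM. Lyz2 alone made up 490.5 to 1141 TPM and 1843 to 4858 TPM of these sums. In Cd68 the groups overlapped, and it was not called (adjusted p = 0.124). Monocyte markers, led by Ccr2 and S100a4 (4 of 8 higher, none lower) were at 155.1 to 283.8 TPM and 809.4 to 1144 TPM, and early genes that cell isolation can induce, led by Dusp1 and Fos (7 of 8 higher) at 1498 to 2315 TPM and 3069 to 4441 TPM. Dendritic cell markers had 2 of 6 higher and 2 lower. They were led by Zbtb46, which was lower, and Cd209a, which was higher. Cd209a was at 0.444 to 14.7 TPM, highest in naive replicate 5, and at 125 to 165.7 TPM. Stellate cell markers had 3 of 8 higher and 1 lower, and cholangiocyte markers 1 of 5 higher. Of those tested, lymphocyte markers had 2 of 7 lower and neutrophil markers 1 of 3 higher and 1 lower. In bulk RNA, fewer cells of a type and less RNA per cell cannot be told apart, and the part of these shifts in the differences below was not tested.

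**Figure D1:**
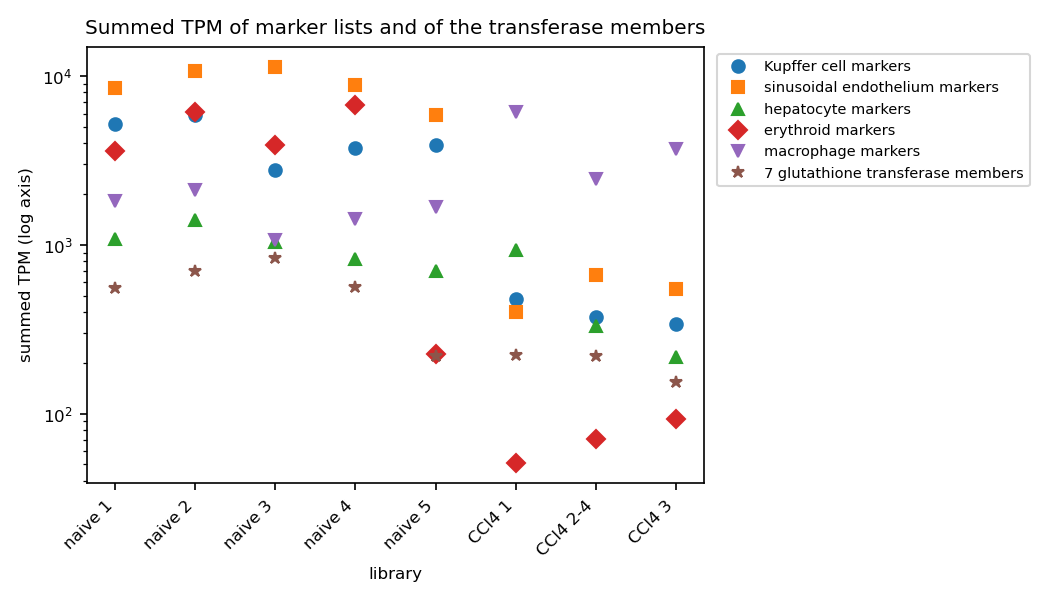
Summed TPM on a log axis of 5 marker lists and of the 7 glutathione transferase members, 1 symbol per list, in each of the 8 libraries. Erythroid markers and the transferases are both low in naive replicate 5 and in the CCl4 libraries, at 224.9 TPM and 220.4 TPM in that naive library. Sinusoidal endothelial and hepatocyte markers are also lowest in it among the naive libraries, at 5895 and 697.7 TPM.

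Among the 35 tested genes, 5 were higher in CCl4 and 12 lower at an adjusted p under 0.05, referred to below as rising and falling. Those that rose were Nfe2l2 and all 4 pentose phosphate genes. Those that fell were Keap1, Gclc, Gsr, Gpx4, Txn1, Cat, Gstm2, Gstp1, Nqo1, Cbr1, Ephx1 and Mt2. Over all genes tested 15.3% rose and 22.5% fell, 37.8% together, against 14.3% and 34.3% of these genes. None of the 5 rises and 5 of the 12 falls reached 2-fold, where the whole table had 6.87% and 13.5%. In 4 of the 35 all CCl4 libraries lay above all naive ones and in 10 below, against 16.3% and 20.6% of all genes, 36.9% together. The median log2 fold change was -0.41 beside -0.06 over all genes. Fold changes are CCl4 minus naive on the log2(TPM + 1) scale, so that changes of genes with few TPM come out too small.

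Naive replicate 5 stood apart, and without it 4 of the genes were higher and 16 lower, while over all genes 2568 were higher and 4170 lower against 2393 and 3513 with it. Without CCl4 replicate 3 there were 3 higher and 7 lower, and over all genes 1998 and 2580, so the counts of lower genes moved the same way in both. The genes higher were 3 as well without naive replicates 1, 3 or 4 or CCl4 replicate 1, where 1889 to 2131 of all genes were higher. Among the calls over all genes, 40.5% were rises, and after quantile normalization 56.5%, with the median of all genes moved by 0.17. The count of members under that scaling was 6 higher and 11 lower. No called member turned its direction under any of the 20 alternatives run.

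**Figure D2:**
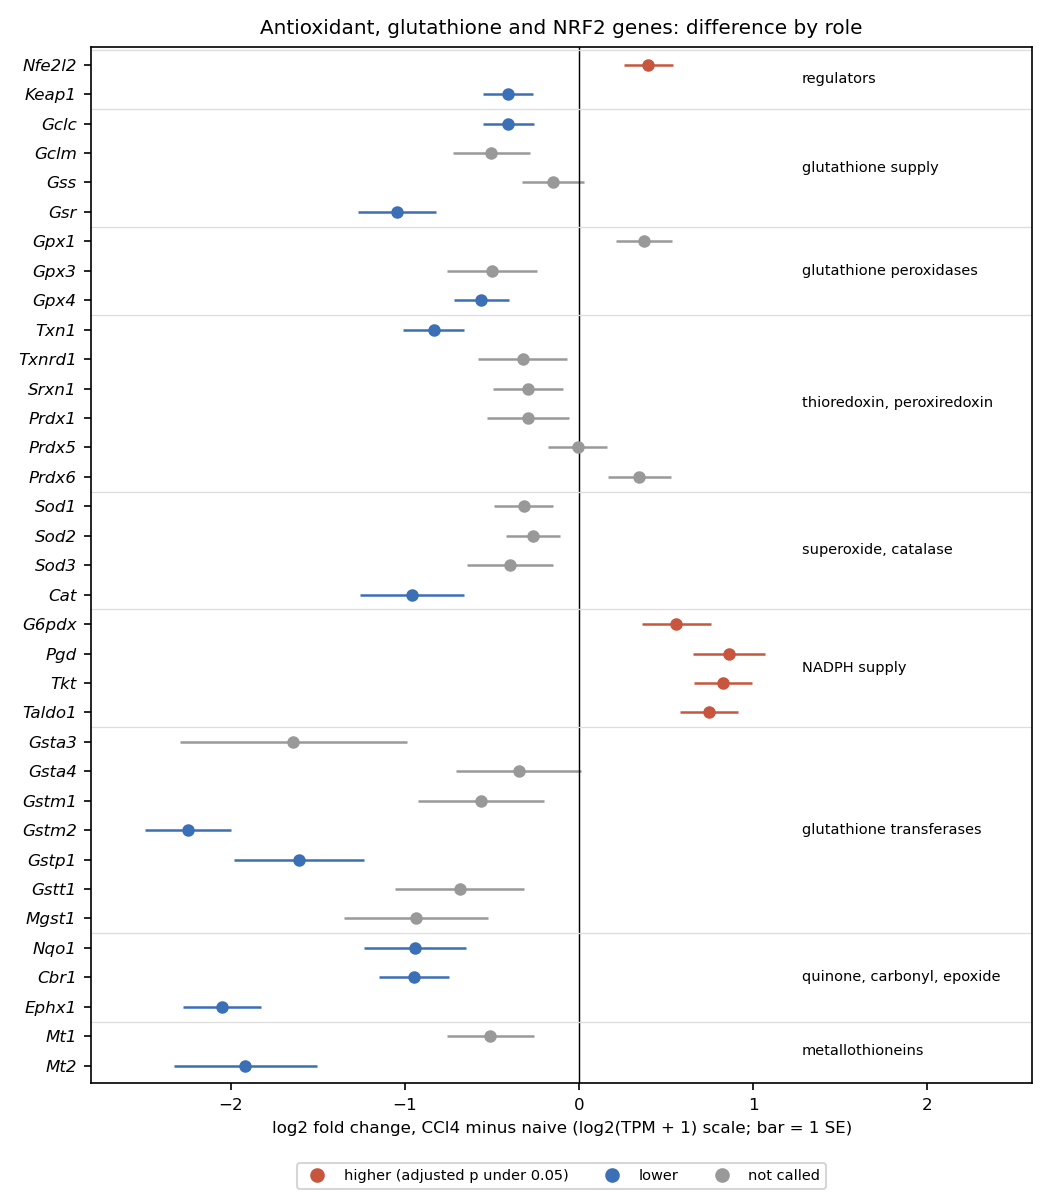
Log2 fold change of each of the 35 tested genes (x axis, CCl4 minus naive on the log2(TPM + 1) scale, bar 1 SE), grouped by role from top to bottom and coloured by call. The 4 pentose phosphate genes, labelled NADPH supply, are the only role group that lies wholly to the right of 0. Of these, G6pdx and Pgd encode the enzymes that form NADPH.

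**Figure D3:**
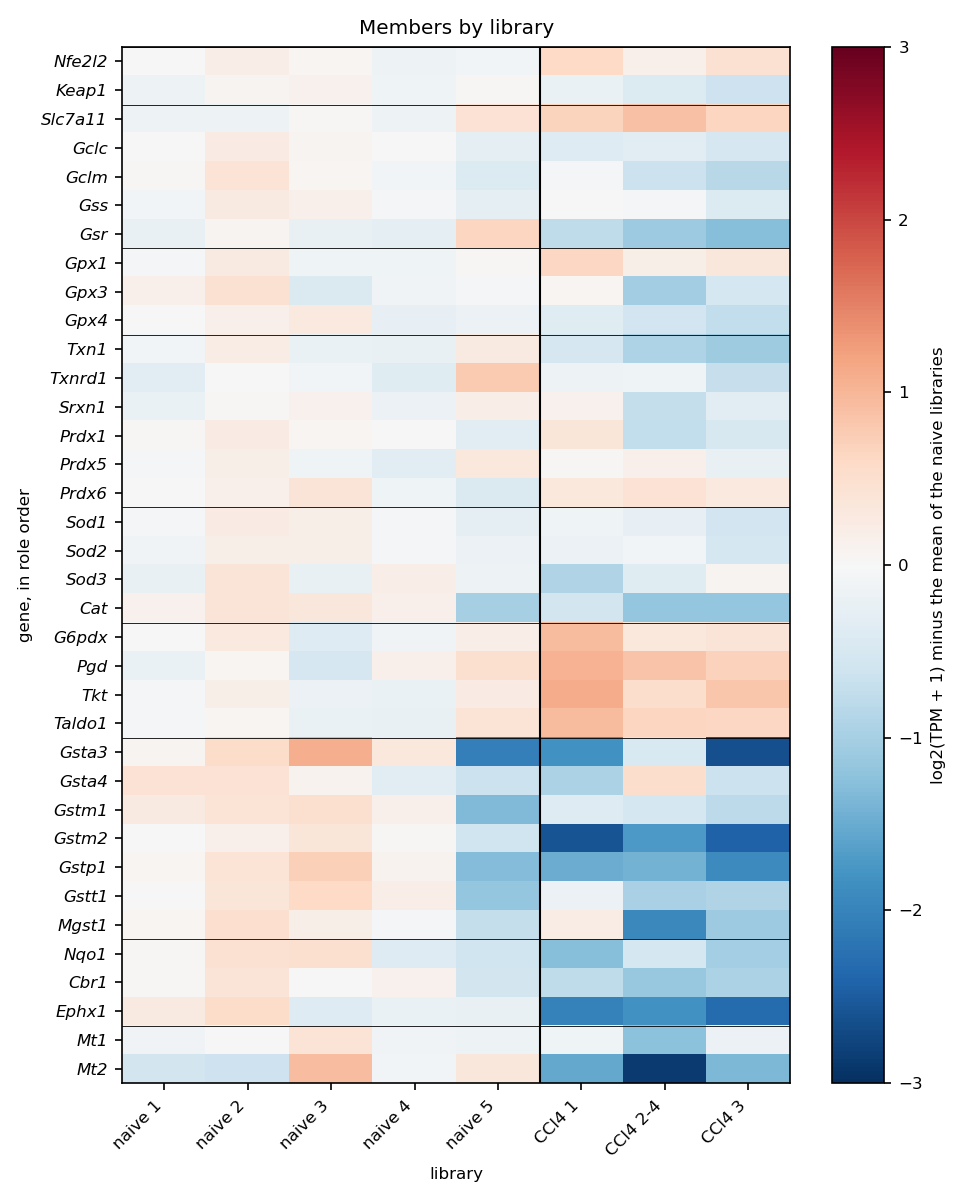
Colour shows log2(TPM + 1) of each of the 36 genes (rows, in role order) in each of the 8 libraries (columns) minus the mean of the naive libraries. The transferase rows Gsta3, Gstm1 and Gstp1 are low in naive replicate 5 as well as in the CCl4 libraries. The rows of the pentose phosphate genes are high in all 3 CCl4 libraries.

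Nfe2l2 and Keap1 moved in opposite directions, each by a small step. Nfe2l2 (GRCm38 chromosome 2, 75675513 to 75704663) stood at 86.4, 99.8, 90.5, 78.0 and 82.2 TPM in naive replicates 1 to 5 and at 131.8, 96.8 and 119.3 TPM in CCl4 replicates 1, 2-4 and 3. CCl4 replicate 2-4 lay below naive replicate 2, so the groups overlapped. The log2 fold change was 0.40 (SE 0.142, adjusted p = 0.047). Keap1 (chromosome 9, 21229730 to 21239332) was at 23.9, 28.2, 29.3, 24.2 and 27.3 TPM and at 22.9, 19.7 and 17.0 TPM, below every naive library, and the log2 fold change was -0.41 (SE 0.143, adjusted p = 0.0449). Both calls sat close to the threshold: that of Nfe2l2 was lost without any of naive replicates 1, 3, 4 or 5 or CCl4 replicates 1 or 3 (adjusted p 0.0654 to 0.17), and that of Keap1 without any naive replicate or without CCl4 replicates 2-4 or 3 (0.0558 to 0.17).

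The rise of Nfe2l2 rested on a transcript that RefSeq lists as noncoding. The coding transcript, 86.6 ± 2.01% of the gene's TPM in naive libraries (SD, n = 5) and 71.5 ± 7.86% in CCl4 libraries (SD, n = 3), was at 67.4 to 89.6 TPM and at 63.0 to 105.8 TPM, and on it alone the log2 fold change was 0.12 (adjusted p = 0.664). The noncoding one went from 10.2 to 12.9 TPM in the naive libraries to 26.0, 33.8 and 36.8 TPM, with no overlap. For Keap1 the leading transcript alone gave -0.57 (adjusted p = 0.0354).

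The promoters of 31 of the 36 genes, 39 windows in all, were in a RefSeq table on GRCm38.p6 that covers 250 bases before to 50 after each start site. The core of the antioxidant response element, TGACNNNGC on either strand, was found in 11 of them (28.2%), 1 per gene, against 12.4% of all 32851 promoters. These genes were put on the list as NRF2 and redox genes, so that difference is a description. Of the 11, 3 rose, 1 fell and 7 did not pass the test, where 15.3% of all genes tested rose and 22.5% fell. The search required TGAC, so the letters TGAGTCAGC in the windows of Gstp1, which fell, and Srxn1, which was not called, were not counted. To let the cores be compared across genes that moved differently, 10 windows are shown. That of Srxn1, which begins 28 bases past the start site, is left out. The core of Pgd begins 3 bases past the start site of its window, and that start site lies inside the gene. The window at the outer start of Pgd, chr4:149166656-149166955, held no core, so this match is upstream of neither start. Of the 11 genes, 3 had several windows, and 1 of 2 held the core in Pgd, 1 of 2 in Mgst1 and 1 of 3 in Txnrd1. Each is read so that the core, in capitals, runs 5′ to 3′, with up to 11 bases on each side. The first 3 genes rose, Mt2 fell, and the others were not called.
Nfe2l2: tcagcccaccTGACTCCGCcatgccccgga
G6pdx: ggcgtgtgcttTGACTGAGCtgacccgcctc
Pgd: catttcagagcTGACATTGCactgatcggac
Mt2: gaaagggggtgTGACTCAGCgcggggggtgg
Gclm: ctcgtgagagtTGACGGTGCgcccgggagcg
Txnrd1: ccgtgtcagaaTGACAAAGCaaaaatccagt
Prdx1: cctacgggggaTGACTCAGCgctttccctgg
Sod1: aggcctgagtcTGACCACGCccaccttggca
Gsta3: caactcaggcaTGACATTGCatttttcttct
Mgst1: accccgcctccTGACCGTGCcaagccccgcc
Prdx1 and Mt2 hold the same core, TGACTCAGC, which includes the letters TGACTCA of the AP-1 element, and Pgd and Gsta3 share TGACATTGC. The windows lie at chr2:75704884-75704913 (- strand) for Nfe2l2, chrX:74428918-74428948 (+ strand) for G6pdx, chr4:149166060-149166090 (- strand) for Pgd, chr8:94172528-94172558 (+ strand) for Mt2, chr3:122245412-122245442 (- strand) for Gclm, chr10:82859103-82859133 (- strand) for Txnrd1, chr4:116685455-116685485 (- strand) for Prdx1, chr16:90220695-90220725 (- strand) for Sod1, chr1:21240453-21240483 (+ strand) for Gsta3 and chr6:138140460-138140490 (- strand) for Mgst1. A match of letters is not a binding site, and binding was not measured here.

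All 4 pentose phosphate genes rose, and in each the 3 CCl4 libraries lay above all 5 naive ones. This pathway regenerates NADPH from glucose 6-phosphate. Taldo1, the transaldolase of its non-oxidative branch (chromosome 7, 141392160 to 141402976), was at 152.6, 161.2, 136.0, 133.6 and 206.1 TPM in naive replicates 1 to 5 and at 301.6, 246.2 and 241.5 TPM in CCl4 replicates 1, 2-4 and 3. The mean went from 157.9 ± 29.3 TPM (SD, n = 5) to 263.1 ± 33.4 TPM (SD, n = 3) (log2 fold change 0.74, SE 0.166, adjusted p = 0.00487). Among naive libraries replicate 5 was nearest to the CCl4 group.

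Tkt, the transketolase that acts beside it (chromosome 14, 30549131 to 30574724), ranged from 49.1 to 67.2 TPM in naive and from 81.4 to 122.3 TPM in CCl4 libraries, and the log2 fold change was 0.82 (SE 0.168, adjusted p = 0.00285). In the oxidative branch, Pgd, the second NADPH-forming dehydrogenase (chromosome 4, 149149991 to 149166705), ranged from 40.9 to 81.8 TPM and from 94.0 to 120.6 TPM (log2 fold change 0.86, SE 0.205, adjusted p = 0.00717). G6pdx, the rate-limiting dehydrogenase at the head of the pathway (chromosome X, 74409483 to 74428880), was the closest to its naive values, at 24.9 to 41.0 TPM against 41.5 to 65.1 TPM. Its log2 fold change was 0.56 (SE 0.198, adjusted p = 0.0472). It did not pass without naive replicates 1, 3 or 4 or CCl4 replicates 1 or 3, with adjusted p from 0.0691 to 0.194, and without CCl4 replicate 1 its log2 fold change was 0.36. Pgd, Tkt and Taldo1 were called under every alternative in which they were tested. The macrophage genes, the monocyte markers and the pentose phosphate genes had the same highest library, CCl4 replicate 1, at 6156, 1144 and 609.5 summed TPM. Lyz2 held 4858 TPM of that macrophage sum. Stellate cell and neutrophil markers and the haem and iron targets given below were highest in that library too, at 142.1, 52.5 and 7464 TPM. Among naive libraries, replicate 5 was the highest for the monocyte markers (283.8 TPM) and the pentose phosphate genes (393.3 TPM). For the macrophage genes it was replicate 2 (2102 TPM). The part of any of these other lists in the pentose phosphate genes was not tested.

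**Figure D4:**
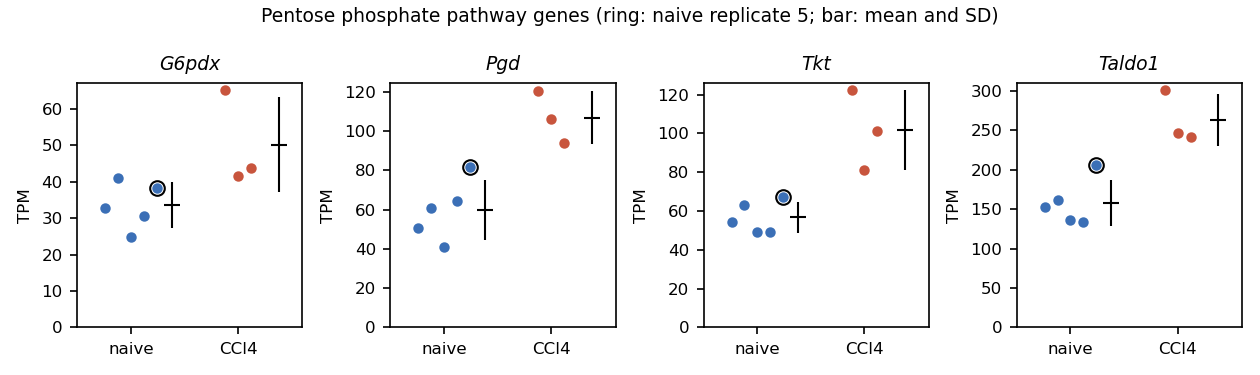
TPM (y axis, from 0) of the 4 pentose phosphate genes by group, 1 point per library, with the mean and SD as a bar and naive replicate 5 ringed. In each panel the lowest CCl4 library is above the highest naive one, by the least in G6pdx (41.5 and 41.0 TPM).

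In the main fit, glutathione supply was lower where it passed the test. Gsr, the reductase that returns oxidised glutathione to its reduced form with NADPH (chromosome 8, 33653238 to 33698162), was at 32.6, 40.3, 32.3, 31.0 and 59.7 TPM in naive replicates 1 to 5 and at 21.8, 17.3 and 15.1 TPM in CCl4 replicates 1, 2-4 and 3. The groups did not overlap, and naive replicate 5 was the highest library. Its log2 fold change was -1.05 (SE 0.222, adjusted p = 0.00363), and -0.89 without naive replicate 5 (adjusted p = 0.00137).

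Gclc, the catalytic subunit of the ligase that sets the rate of glutathione synthesis, had naive values of 19.2 to 28.2 TPM and CCl4 values of 16.4 to 18.5 TPM (log2 fold change -0.41, SE 0.147, adjusted p = 0.0494). That call was lost without any single library other than naive replicate 5 (adjusted p 0.0756 to 0.146). Gclm, the modifier subunit of the same ligase, did not pass at 21.7 ± 4.60 TPM (SD, n = 5) and 15.2 ± 5.004 TPM (SD, n = 3), where CCl4 replicate 1 held 20.9 TPM and the other CCl4 libraries 11.6 and 13.2. The difference of Gclm on the log2 scale, -0.50 (adjusted p = 0.1), was -0.74 without CCl4 replicate 1 (adjusted p = 0.023) and -0.61 without naive replicate 5 (adjusted p = 0.0374). Gss, which completes the synthesis, differed by less than the spread (10.4 ± 1.68 and 9.28 ± 1.57 TPM, adjusted p = 0.546).

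Slc7a11, which brings in cystine for glutathione, was near the lower end of the measured range in every library. It was at 0.149, 0.151, 0.302, 0.151 and 0.739 TPM in the naive and at 1.04, 1.35 and 0.987 TPM in the CCl4 libraries. It was not tested in the main fit, since it reached 1 TPM only in CCl4 replicates 1 and 2-4. All CCl4 values lay above all naive ones. Without the filter, and after rescaling to protein-coding genes, all 36 genes were tested and Slc7a11 was called higher.

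The glutathione peroxidases, selenoenzymes that reduce peroxides at the cost of glutathione, had 1 fall and no rise among 3 members. Gpx1, the cytosolic form and among the most abundant of the 36 genes, was at 439.2, 547.4, 408.6, 408.8 and 462.0 TPM in naive and at 694.7, 505.2 and 566.6 TPM in CCl4 libraries. The groups overlapped at CCl4 replicate 2-4, and the log2 fold change of 0.37 did not pass (SE 0.159, adjusted p = 0.0905). Its reads were divided between RefSeq transcripts in shares that varied widely, the leading one holding 46.8% to 86.9%. On that transcript alone the log2 fold change was 0.61 (adjusted p = 0.0481), and with median-of-ratios scaling of the gene 0.46 (adjusted p = 0.0273), whereas without CCl4 replicate 1 Gpx1 was at 0.25 (adjusted p = 0.291).

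Gpx4, which reduces lipid peroxides in membranes and guards against ferroptosis, fell from 194.1 ± 30.7 TPM (SD, n = 5) to 130.7 ± 17.0 TPM (SD, n = 3), with every CCl4 library below every naive one. The log2 fold change was -0.56 (SE 0.159, adjusted p = 0.0174), and without CCl4 replicate 3 it was -0.47 (adjusted p = 0.0845). Its leading transcript alone gave -0.46 (adjusted p = 0.0709). Gpx3, the secreted plasma form, was at 18.0 ± 4.49 TPM and 12.8 ± 5.23 TPM and did not pass (adjusted p = 0.16). Without CCl4 replicate 1, at 18.4 TPM the highest of its group, Gpx3 had a log2 fold change of -0.78 (adjusted p = 0.0361), and without CCl4 replicate 2-4, the lowest, -0.23 (adjusted p = 0.528) where it was -0.50 with all libraries.

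In the thioredoxin and peroxiredoxin system 1 of 6 genes fell and none rose. Txn1, thioredoxin itself (chromosome 4, 57943373 to 57956411), ranged from 139.0 to 197.8 TPM in naive and from 77.6 to 115.1 TPM in CCl4 libraries (log2 fold change -0.83, SE 0.177, adjusted p = 0.00359). It was called without each single library in turn. Txnrd1, the reductase that recharges thioredoxin, was at 57.4 ± 21.8 TPM (SD, n = 5) and 44.3 ± 9.12 TPM (SD, n = 3), the wide naive spread coming from 95.3 TPM in replicate 5 against 42.5 to 54.5 TPM in the other naive libraries (adjusted p = 0.356).

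Prdx5, a peroxiredoxin of mitochondria and peroxisomes and the most abundant of this class, did not pass. It was at 236.4, 277.3, 223.1, 194.8 and 301.4 TPM in naive and at 251.2, 272.3 and 208.5 TPM in CCl4 libraries, and the log2 fold change was -0.01 (SE 0.169, adjusted p = 0.981). All 3 CCl4 values lay inside the naive range. Prdx1, a cytosolic peroxiredoxin, spread from 105.8 to 229.7 TPM within CCl4, with replicate 1 above all naive libraries (141.0 to 210.7 TPM) and the other 2 CCl4 libraries below them. Its log2 fold change of -0.29 (adjusted p = 0.359) was -0.62 without CCl4 replicate 1 (adjusted p = 0.0225), -0.19 without CCl4 replicate 3 (adjusted p = 0.648) and -0.06 without CCl4 replicate 2-4 (adjusted p = 0.861). Prdx6, which uses glutathione, stood at 25.0 ± 5.47 and 31.5 ± 1.83 TPM (adjusted p = 0.159). It passed with median-of-ratios scaling (log2 fold change 0.43, adjusted p = 0.0268) and quantile normalization (0.47, adjusted p = 0.0176). Srxn1, the sulfiredoxin that repairs overoxidised peroxiredoxins, did not pass at 10.7 ± 1.42 and 8.71 ± 2.81 TPM (adjusted p = 0.281).

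None of the 3 superoxide dismutases passed the test. Sod1, the copper and zinc enzyme of the cytosol, was at 429.5, 532.2, 509.9, 427.7 and 366.1 TPM in naive and at 411.0, 377.7 and 300.1 TPM in CCl4 libraries (log2 fold change -0.32, SE 0.168, adjusted p = 0.165). Of the CCl4 libraries only replicate 3 was below the naive range, and without it the value for Sod1 was -0.19 (adjusted p = 0.491). Rescaled to protein-coding genes, Sod1 passed at -0.38 (adjusted p = 0.0217) and Sod2, the mitochondrial manganese enzyme, at -0.33 (adjusted p = 0.0412), and Sod1 passed after quantile normalization at -0.39 (adjusted p = 0.00879). As deposited, Sod2 was at 27.2 ± 3.27 and 22.5 ± 3.61 TPM (adjusted p = 0.204), with a log2 fold change of -0.27 that was -0.14 without CCl4 replicate 3 (adjusted p = 0.572). Sod3, the extracellular enzyme, was low throughout, at 3.90 to 6.56 and 2.08 to 5.09 TPM.

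Catalase, which splits hydrogen peroxide in peroxisomes and is abundant in red cells and hepatocytes, fell, and naive replicate 5 went with the CCl4 libraries. Its values are given in full because of this pattern, which was noticed after they were seen. Cat was at 103.4, 124.1, 120.8, 106.0 and 47.0 TPM in naive replicates 1 to 5 and at 64.5, 41.8 and 42.0 TPM in CCl4 libraries. On the log2 scale the difference was -0.96 (SE 0.299, adjusted p = 0.0272), and without naive replicate 5 it was -1.21 (adjusted p = 0.000276). The call was lost without any other naive replicate or without CCl4 replicates 2-4 or 3 (adjusted p 0.052 to 0.106). The erythroid markers had the same low libraries, naive replicate 5 with 224.9 TPM and the CCl4 libraries with 50.7 to 92.5 TPM. Hepatocyte and sinusoidal endothelial markers were also lowest in replicate 5 among the naive libraries, at 697.7 and 5895 TPM. The part of any of these in Cat was not tested.

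The 2 largest falls were in detoxifying enzymes. Ephx1, the microsomal epoxide hydrolase (chromosome 1, 180989556 to 181017569), was at 61.9, 75.9, 39.0, 44.6 and 43.9 TPM in naive replicates 1 to 5 and at 11.9, 13.9 and 9.58 TPM in CCl4 replicates 1, 2-4 and 3. The groups lay far apart, and naive replicate 5 was with the other naive libraries. The log2 fold change was -2.05 (SE 0.223, adjusted p = 4.38e-05). Gstm2, a mu class glutathione transferase (chromosome 3, 107981702 to 107986420), was at 38.3, 42.7, 49.3, 39.2 and 25.0 TPM and at 5.53, 10.8 and 6.22 TPM. It had the largest fall of the 35, -2.25 (SE 0.245, adjusted p = 4.55e-05), again with no overlap. Glutathione transferases couple glutathione to electrophiles. Those of the mu class are close in sequence, so the division of reads among them is uncertain, and Gstm3 of this class, given below, rose.

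Gstp1, the pi class enzyme and the most abundant transferase here (chromosome 19, 4035411 to 4037912), was at 381.1, 484.3, 603.3, 391.2 and 148.2 TPM in naive and at 129.1, 136.8 and 95.8 TPM in CCl4 libraries. Naive replicate 5 was close to the highest CCl4 library, yet the groups did not overlap. Its log2 fold change was -1.61 (SE 0.374, adjusted p = 0.00618), and -1.93 without naive replicate 5 (adjusted p = 2.615e-05). Gstp1 has a near-identical neighbour, Gstp2, so reads may be split between them, and Gstp2 fell too, from 6.76 to 16.8 TPM to 0.595 to 2.91 TPM.

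The other 5 transferases did not pass, and 4 of them did without naive replicate 5. Gsta3, an alpha class enzyme, was at 32.7 to 66.1 TPM in naive replicates 1 to 4, 6.71 TPM in naive replicate 5 and 4.08 to 22.0 TPM in CCl4 libraries. Its log2 fold change was -1.64 (adjusted p = 0.0717), -2.15 without naive replicate 5 (adjusted p = 0.00242) and -2.23 without CCl4 replicate 2-4 (adjusted p = 0.0324). Gstm1 was at 58.8 to 74.3 TPM in those 4 libraries, 20.4 TPM in naive replicate 5 and 30.4 to 40.0 TPM in CCl4. Its log2 fold change went from -0.56 (adjusted p = 0.25) to -0.90 without naive replicate 5 (adjusted p = 0.000627). For Gstt1, a theta class enzyme, -0.69 (adjusted p = 0.173) became -0.98 (adjusted p = 0.00661). Mgst1, the microsomal transferase, went from -0.94 (adjusted p = 0.101) to -1.12 (adjusted p = 0.0455), and without CCl4 replicate 1, which held 32.1 TPM against 6.51 and 12.3, it was -1.51 (adjusted p = 0.00495). Without CCl4 replicate 2-4 the value for Mgst1 was -0.44 (adjusted p = 0.409). Gsta4 was at 1.69 to 4.76 and 1.202 to 5.15 TPM and did not pass (adjusted p = 0.488).

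Cbr1, a carbonyl reductase (chromosome 16, 93607837 to 93610349), fell from 28.0 ± 6.29 TPM (SD, n = 5) to 13.8 ± 1.96 TPM (SD, n = 3) (log2 fold change -0.95, SE 0.2, adjusted p = 0.00352) without overlap. Nqo1, the quinone reductase often used as a readout of NRF2, was scarce, at 0.974 to 3.13 TPM in naive and 0.223 to 1.06 TPM in CCl4 libraries. The log2 fold change was -0.94 (SE 0.292, adjusted p = 0.0264), and the call was lost without naive replicates 2 or 3 or CCl4 replicates 1 or 3 (adjusted p 0.0541 to 0.103).

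Hepatocytes express many of these detoxifying enzymes, and their markers were lower too, 7 of 10 with none higher. CCl4 replicate 1 held 930.3 TPM of hepatocyte markers, inside the naive range of 697.7 to 1401 TPM, and the other CCl4 libraries 217.6 and 331.4 TPM. Alb made up 536.9 TPM of that sum, and single markers parted. Cyp2e1 was at 5.97 TPM, below its naive range of 23.1 to 44.5 TPM, and Cyp3a11 at 27.7 TPM, above its range of 1.63 to 4.30 TPM. In CCl4 replicate 1 Ephx1 was at 11.9 TPM, Gstm2 at 5.53, Gstp1 at 129.1 and Cbr1 at 15.8, each below all naive libraries, while Mgst1 at 32.1 TPM was inside its naive range. The part of hepatocyte RNA in these values was not tested. The sinusoidal endothelial markers separated the groups, as Ephx1, Gstm2, Gstp1 and Cbr1 did, at 5895 to 11352 and 398.7 to 661.5 TPM. So did the Kupffer cell markers, at 2764 to 5891 and 337.7 to 475.6 TPM, and the erythroid ones, at 224.9 to 6752 and 50.7 to 92.5 TPM. The part of any of these lists was not tested.

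**Figure D5:**
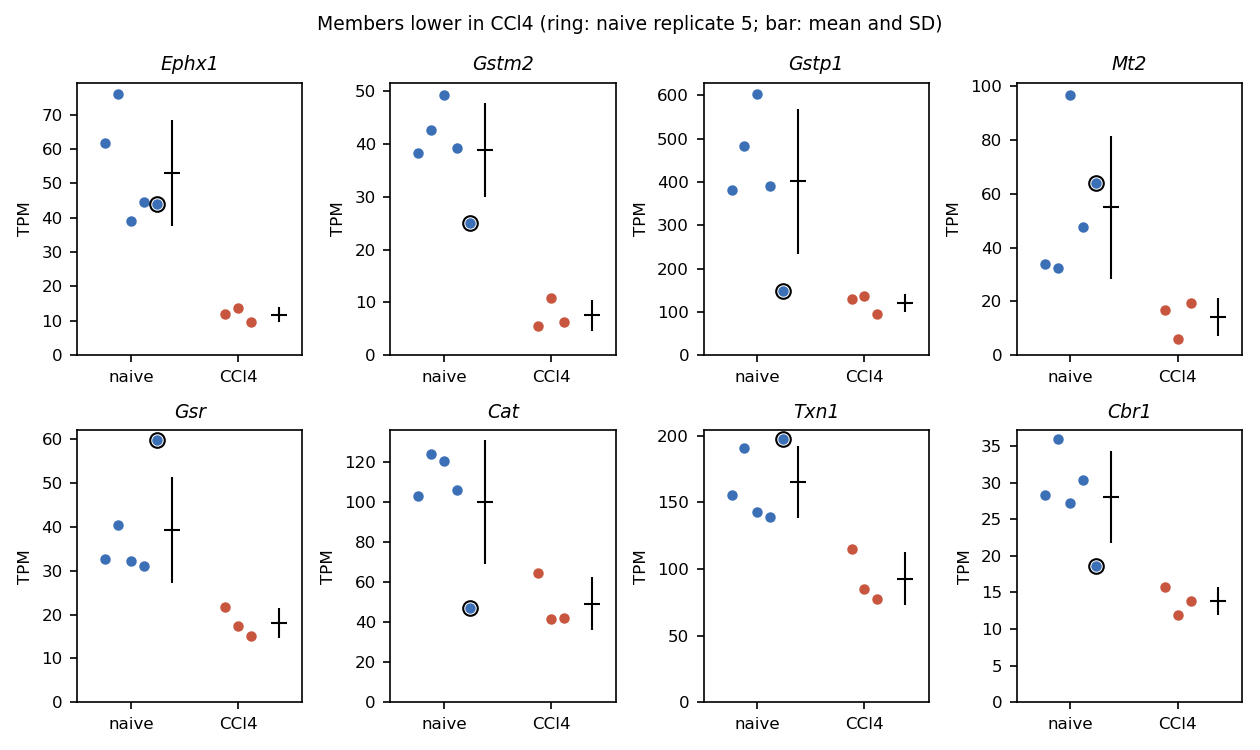
TPM (y axis, from 0) of 8 genes that fell, by group, 1 point per library, with the mean and SD as a bar and naive replicate 5 ringed. Naive replicate 5 lies inside the naive range of Ephx1 and Mt2 and is the highest naive library of Gsr and Txn1. It is the lowest naive library of Gstm2, Gstp1, Cbr1 and Cat. For Cat that library, at 47.0 TPM, lies among the CCl4 libraries.

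Of the 2 metallothioneins, small cysteine-rich proteins that bind zinc and copper, 1 fell. Mt2 (chromosome 8, 94172618 to 94173567) was at 33.8, 32.5, 96.6, 47.5 and 64.0 TPM in naive replicates 1 to 5 and at 16.8, 6.01 and 19.3 TPM in CCl4 replicates 1, 2-4 and 3. All CCl4 values were below all naive ones, and the log2 fold change was -1.92 (SE 0.409, adjusted p = 0.00382). Its neighbour Mt1 (chromosome 8, 94178883 to 94180327) was at 144.9, 154.5, 206.8, 144.4 and 139.6 TPM and at 143.2, 65.7 and 139.1 TPM. CCl4 replicate 3 was just under the lowest naive library and replicate 2-4 far under it, and the log2 fold change of -0.51 did not pass (SE 0.25, adjusted p = 0.135). Without CCl4 replicate 2-4 it was -0.15 (adjusted p = 0.568). Both genes were lowest in CCl4 replicate 2-4 and highest in naive replicate 3. Whether the changes of Mt1 and Mt2 differ was not tested.

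Metallothionein genes are induced through metal response elements bound by the zinc sensor MTF1. The core was searched as TGCACNC and TGCGCNC on both strands, and 25.7% of all promoters held at least 1 match, 1.97% at least 3 and 0.517% at least 4. Mt1 had 3 and Mt2 had 4, shown because 1 of these neighbours passed the test and the other did not. Matches are in capitals, and in Mt2 the antioxidant response element core is too, TGACTCAGC at 79 bases before the start site. The windows are chr8:94178839-94179138 for Mt1 and chr8:94172368-94172667 for Mt2, both on the + strand.
Mt1: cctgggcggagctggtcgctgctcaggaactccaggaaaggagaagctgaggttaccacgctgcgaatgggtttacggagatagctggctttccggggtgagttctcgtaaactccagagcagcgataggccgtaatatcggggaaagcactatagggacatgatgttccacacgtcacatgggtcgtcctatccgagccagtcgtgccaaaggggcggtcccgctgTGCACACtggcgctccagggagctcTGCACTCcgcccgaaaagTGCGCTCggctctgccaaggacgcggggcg
Mt2: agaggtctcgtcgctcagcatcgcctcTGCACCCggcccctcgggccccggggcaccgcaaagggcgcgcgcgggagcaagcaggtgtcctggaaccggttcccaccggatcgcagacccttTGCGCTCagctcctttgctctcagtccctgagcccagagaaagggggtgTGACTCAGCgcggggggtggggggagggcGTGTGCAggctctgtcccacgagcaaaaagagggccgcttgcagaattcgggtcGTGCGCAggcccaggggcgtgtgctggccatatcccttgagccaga
In Mt1 the matches begin 23 bases before and 2 and 20 bases after the start site that this table gives, and in Mt2 they begin 223, 128 and 50 bases before and 4 after it. Mtf1 itself was at 8.44 to 11.7 TPM in naive and 7.53 to 8.59 TPM in CCl4 libraries (adjusted p = 0.27). Slc39a8, a zinc and manganese importer, fell from 80.7 ± 17.1 TPM (SD, n = 5) to 6.42 ± 1.37 TPM (SD, n = 3) (log2 fold change -3.45, SE 0.208, adjusted p = 1.645e-06). Of the 4 metal handling genes listed, Mtf1 and Slc39a8 among them, 2 fell and 0 rose. Their part in the fall of Mt2 was not tested.

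Beyond these members, 79 further genes of the same pathways were listed and 75 tested. Of these 7 rose (9.33%) and 22 fell (29.3%), against 15.3% and 22.5% of all genes, with a median log2 fold change of -0.14. Among partners and repressors of NRF2, 2 of 11 rose and 2 fell. Bach1 and Bach2, which encode repressors that compete for the same elements, rose. Bach1 went from 27.5 to 36.6 TPM to 47.0 to 51.6 TPM (log2 fold change 0.63, SE 0.132, adjusted p = 0.00327), although its leading transcript alone gave 0.16 (adjusted p = 0.662). Bach2 went from 6.98 to 7.56 TPM to 17.7 to 25.3 TPM (1.40, SE 0.151, adjusted p = 4.17e-05). The related factor Nfe2l1 fell from 90.7 to 117.3 TPM to 38.1 to 52.2 TPM (-1.21, SE 0.15, adjusted p = 0.00011), and so did Mafg, a small MAF partner (-0.66, SE 0.182, adjusted p = 0.0151), whose leading transcript alone did not pass (adjusted p = 0.132). Sqstm1, the autophagy adaptor that binds KEAP1, was at 201.2 ± 21.1 and 182.4 ± 15.6 TPM (adjusted p = 0.459).

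Haem and iron targets of NRF2 went both ways. Hmox1, haem oxygenase 1, fell, from 288.4, 412.9, 210.9, 263.6 and 316.5 TPM in naive replicates 1 to 5 to 192.2, 73.7 and 146.0 TPM in CCl4 replicates 1, 2-4 and 3 (log2 fold change -1.19, SE 0.296, adjusted p = 0.00907). Blvrb, a biliverdin reductase, fell too (log2 fold change -1.14, SE 0.242, adjusted p = 0.00374). Fth1, the ferritin heavy chain, rose from 564.0 ± 65.6 TPM (SD, n = 5) to 1256 ± 433.9 TPM (SD, n = 3) (log2 fold change 1.10, SE 0.227, adjusted p = 0.0032). Ftl1, the light chain, spread from 1918 to 5508 TPM within CCl4 and did not pass (adjusted p = 0.577).

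Of 11 further thioredoxin and glutaredoxin genes 1 fell and none rose. This was Txnip, the thioredoxin-binding protein that responds to glucose, at 673.3, 799.9, 609.9, 597.5 and 314.4 TPM in naive and 225.2, 258.8 and 193.8 TPM in CCl4 libraries (log2 fold change -1.35, SE 0.265, adjusted p = 0.00228). As with Cat, naive replicate 5 was the lowest of its group. Selenop, the selenium carrier, fell from 1639 to 3924 TPM to 324.3 to 754.2 TPM (-2.65, SE 0.327, adjusted p = 0.000104). Among the other transferases 5 of 12 fell and 2 rose, with Gstk1 of mitochondria and peroxisomes at -2.18 (SE 0.241, adjusted p = 4.9e-05). Those that rose were Gstm3 and Gstt3. Gstm3, of the mu class, went from 0 to 1.24 TPM to 6.36 to 8.63 TPM (2.13, SE 0.277, adjusted p = 0.000152). Gstt3 rose by 0.94 (SE 0.173, adjusted p = 0.00145). Osgin1 and Abcc4, NRF2 targets, fell by 1.12 and 1.10 on the log2 scale (adjusted p = 0.00132 and 0.000267), and Oplah, which returns oxoproline to glutamate in the glutathione cycle, by 1.42 (adjusted p = 0.000291). On their leading transcripts alone Osgin1 (adjusted p = 0.0648) and Oplah (adjusted p = 0.664) were not called.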

How the data were processed

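RNA-seq of Kupffer cells gave 8 files, 5 naive and 3 CCl4. Each lists TPM by RefSeq transcript, as deposited and per the file headers, and kallisto 0.42.4 and the build GRCm38 are named in the submitters' processing notes. For index and trimming, nothing is given in the sources used here. Depth cannot be read from TPM, so precision comes from the spread between libraries. Of 107384 transcripts, 86722 were assigned to a gene by accession without version (RefSeq, GRCm38.p6, which also gave coordinates and promoters), and the rest, 6.06% to 7.58% of TPM, were left out. 7SL and 7SK RNA held 32.5% to 45.0% of TPM, which rescaling alternatives address.

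The test used limma 3.58.1 (R 4.3.3) on log2(TPM + 1) of genes reaching 1 TPM in 3 or more libraries (moderated variances with a trend on mean level, group alone in the model), with Benjamini-Hochberg adjustment over all 15629 genes and a threshold of 0.05. The fit was tested on simulated data. The members and lists were chosen with earlier results of these data known. Values in every library are given for Nfe2l2, Keap1, members called with at least 2-fold change and the most abundant member of each role. Of the other pathway genes, Hmox1, Sqstm1, Txnip and Bach1 and the 10 most abundant called with at least 2-fold change are named. Further names (Cat in every library, Mtf1, Ftl1, Gstp2, Gstm3, Gstt3, Mafg, Cyp2e1 and Cyp3a11) were picked with their values in view. The fit was repeated with changed pseudocount, filter, scaling and variance model, weighted libraries, a replicate block, versioned accessions, leading transcripts and leaving out each library.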

Additional observations from a re-analysis of the deposited data

Results flagged for a closer look

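In 5 of the 36 genes 1 naive library stood far from the other 4, its gap to the nearest of them being more than 0.71 of the whole range. Chance marks about 1 in 20 such groups, and groups of 3 were not examined. Naive replicate 5 was the library in 4 of the 5. It held 0.739 TPM of Slc7a11 where the rest of its group held 0.149 to 0.302, 95.3 TPM of Txnrd1 against 42.5 to 54.5, 47.0 TPM of Cat against 103.4 to 124.1 and 20.4 TPM of Gstm1 against 58.8 to 74.3. Naive replicate 3 held 206.8 TPM of Mt1 against 139.6 to 154.5.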

How the results depend on the processing

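Of the 17 called members, 9 were called under every alternative in which they were tested (Gsr, Pgd, Tkt, Taldo1, Gstm2, Gstp1, Cbr1, Ephx1 and Mt2), and 6 of the 18 others were called under none. Leaving out 1 library gave 3 to 5 members higher and 7 to 16 lower, 7 to 9 and 19 to 26 of the other pathway genes, and 4578 to 6738 genes in all. Only 3 members were higher without the variance trend and 2 with versioned accessions only, where fewer genes were tested. Of the other pathway genes 11 were higher with median-of-ratios scaling, 13 with quantile normalization and 4 with versioned accessions, against 7. No called result turned its direction.

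The replicate numbers 1 and 3 occur in both groups, but nothing says that they mark shared animals or days, and the deviations of these libraries from their group means correlated at 0.0772 and -0.0414. With the replicate number as a block, which in effect compares only those libraries, 5312 genes were called against 5906, with 4 members higher and 12 lower. That model leaves almost no spread to estimate within a gene. Its calls therefore lean on variances shared across genes and are a weak check. Gsta3, Gsta4, Gstm1 and Gstt1 then passed, and Nfe2l2, Keap1, Gclc, Gpx4 and Txn1 did not. Of the other pathway genes named, Hmox1 (log2 fold change -0.56, adjusted p = 0.148), Bach1 (adjusted p = 0.0649) and Mafg (adjusted p = 0.102) did not pass with the block. TPM give no depth, so counting error is unknown.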
